A study of Mus musculus with 6 samples.

Results

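The genes described here are 9 lysosomal cathepsins (Ctsa, Ctsb, Ctsc, Ctsd, Ctsh, Ctsk, Ctsl, Ctss and Ctsz) and Cst3, which encodes cystatin C. They were chosen by name, as protease genes and an inhibitor gene of the endolysosomal system, with a rule that used no measured value, although earlier results of these data were known. All 10 were among the 19449 genes counted in single cells and among the 55351 genes counted in bulk microglia.

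Cathepsins are proteases that are made as inactive precursors, delivered to endosomes and lysosomes and activated as these compartments become acidic. Most are cysteine proteases, but cathepsin D is an aspartic protease and cathepsin A is a serine carboxypeptidase. Cystatin C is a secreted inhibitor of cysteine cathepsins and does not inhibit cathepsin D or cathepsin A. Microglia, the resident macrophages of the central nervous system, are rich in both, and they use cathepsins to degrade ingested proteins, including myelin, and to prepare antigens for loading onto MHC class II.

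The samples came from mice with adoptive transfer EAE, a model of multiple sclerosis in which CD4+ T cells reactive to a myelin peptide (MOG35-55) and raised in immunized donors are injected into naive C57BL/6 recipients. CD45+ cells were sorted from the spinal cords of young recipients (8 to 12 weeks old) and middle-aged recipients (40 to 44 weeks old), on day 6 and on day 10 after transfer. Each of the 4 single-cell libraries pooled 4 spinal cords, and there was 1 library per age and day, so days and the handling of single libraries cannot be told apart, and neither can ages within a day. Microglia (CD45int CD11b+) of naive mice, with 1 bulk library per age, made up the rest of the series.

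The libraries held 8315 to 10026 cells each, with a median of 4704.5 to 6196 UMIs (unique transcript molecules) per cell, and 154 of the 37903 barcodes, 0.406%, occurred in more than 1 library. The deposited cluster numbers were used as given and were checked against marker genes. Cluster 10 was microglia-like, with Sparc, Sall1 and Fcrls among its 10 leading genes. Cluster 8 had raised microglial markers, with a median of 2.1 on the log2 scale over the other cells, but its leading gene was Cxcl13, none of the microglial markers was among its 10 leading genes and its cells were shallow (median 2059 to 3069.5 UMIs), so it is called by its number. Clusters 1 and 5 were monocyte/macrophage-like, cluster 7 dendritic cell-like, cluster 2 T cell-like, cluster 4 B cell-like, and clusters 3 and 6 neutrophil-like. Levels are given as CPM, the UMIs of a gene per 1000000 UMIs over the summed cells of a cluster in a library, always in the order young day 6, middle-aged day 6, young day 10 and middle-aged day 10.

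The positions below are those of the mouse genome GRCm38 (mm10) in GENCODE M21. Cst3 lies at chr2:148871722-148875692 on the minus strand. Among the cysteine protease genes, Ctss (chr3:95526786-95556403) and Ctsk (chr3:95499256-95509362) are neighbours on the plus strand, and Ctsb (chr14:63122462-63145923, plus), Ctsl (chr13:64359337-64370890, minus), Ctsc (chr7:88278085-88310888, plus), Ctsh (chr9:90054152-90076089, plus) and Ctsz (chr2:174427493-174439039, minus) are spread over other loci. Ctsd is at chr7:142375911-142388038 on the minus strand and Ctsa at chr2:164832873-164841032 on the plus strand.

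Many lysosomal genes carry an E-box-like element, bound by the MiT/TFE transcription factors (Tfeb, Tfe3, Mitf, Tfec), in their promoters. Its palindromic core, CACGTG, which reads the same on both strands, was searched in the 250 bases before the RefSeq transcription starts (GRCm38.p6) of the 8 members that matched the table. It was found for 3 of the 8 members, against 6.02% of all 32851 promoter windows, and Ctsd held it in 2 places, as 0.429% of windows did. The background counts windows and not genes. Ctsa had 2 windows, and the one before its upstream start held no match. The stretches shown are all the matches found. Each is written 5′ to 3′ on the strand of its gene, with the core in capitals.
Ctsd, 245 bases before the start, chr7:142388057-142388077 (minus), beyond the end of the GENCODE gene: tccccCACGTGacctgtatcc
Ctsd, 98 bases before the start, chr7:142387910-142387935 (minus), within the span of the GENCODE gene: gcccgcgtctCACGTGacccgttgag
Ctsa, 12 bases before its downstream start, chr2:164833751-164833772 (plus), within the gene: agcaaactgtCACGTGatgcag
Ctsl, 236 bases before the start, chr13:64370741-64370766 (minus), within the gene: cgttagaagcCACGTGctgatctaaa
No match of these letters was found in the windows of Cst3, Ctsz, Ctsk, Ctss and Ctsc. Members called by day, as described below, were found both with a match (Ctsd, Ctsa, Ctsl) and without one (Cst3, Ctsk, Ctss, Ctsz, Ctsc), and Ctsb and Ctsh, also called in places, were not searched. A match is a description of the sequence and not a measured site.

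Of the 16 numbered clusters, cluster 10 had the highest median level over the 4 libraries for 8 of the 10 members. The exceptions were Cst3, highest in the dendritic cell-like cluster 7, and Ctsk, highest in the monocyte/macrophage-like cluster 1. With mitochondrial and ribosomal UMIs left out of the totals, the number was 7 of 10. For the inhibitor, Cst3, the median was 14712 CPM in cluster 7, 7155 CPM in cluster 10 and 6398 CPM in cluster 8, ranges that overlapped, and 1617 CPM in cluster 1, which lay below all of them. For the endopeptidase Ctss, the medians were 7170 CPM in cluster 10, 6169 CPM in cluster 8 and 4334 CPM in cluster 1. The range of cluster 8 overlapped those of clusters 10 and 1. Every library of cluster 10 (5926 CPM or more) lay above every library of cluster 1 (5232 CPM or less). All libraries of these clusters lay above the next, cluster 5, with 2104 CPM. Ctsl separated the clusters in every library, with medians of 1388 CPM in cluster 10, 990 CPM in cluster 8 and 424 CPM in cluster 1. The T cell-like cluster 2 held little of most members, with 116 to 135 CPM of Ctss and 151 to 232 CPM of Cst3. Ctsd was its highest member, at 169 to 375 CPM, beside 62.6 to 287 CPM in cluster 7.

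**Figure D1:**
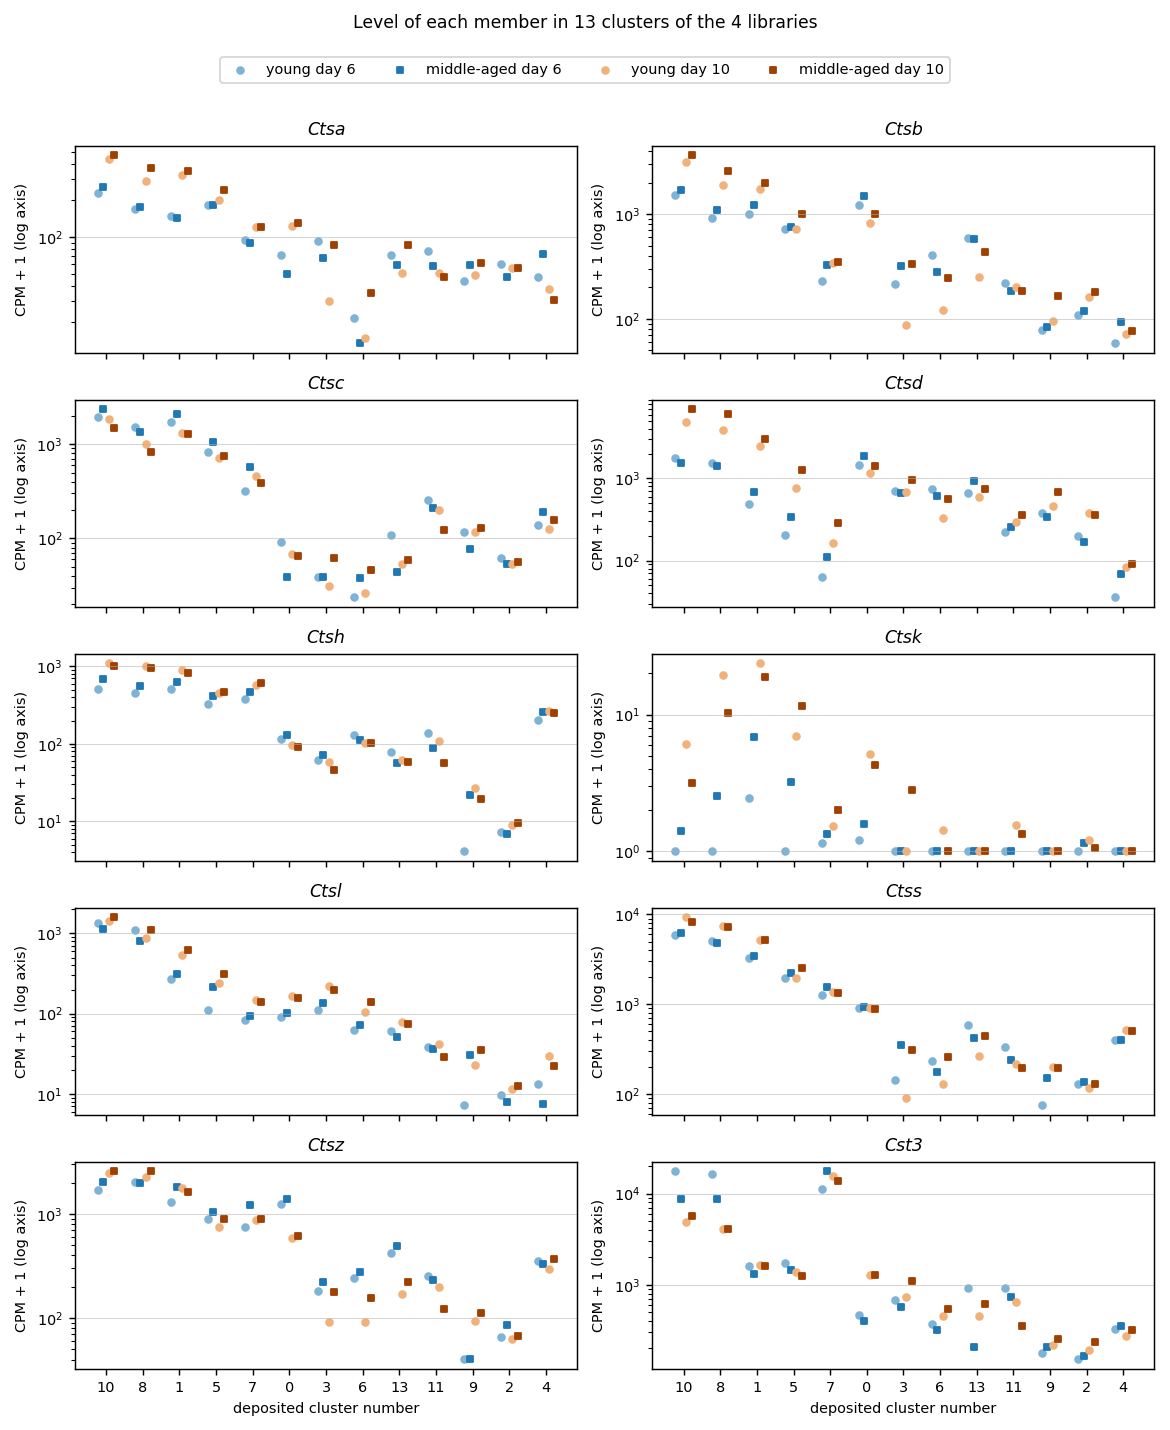
Level of each of the 10 genes (CPM, log scale) in the clusters of the single-cell data, with 1 point for each of the 4 libraries. Cluster 10 has the highest median for 8 of the 10 genes, Cst3 is highest in cluster 7 and Ctsk in cluster 1.

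The libraries of day 10 were compared with those of day 6 across ages, to ask how the genes differed between these times after transfer, with edgeR's quasi-likelihood test on the 4 summed libraries and Benjamini-Hochberg adjustment over all genes. In cluster 10, 2 of the 9 members tested were higher on day 10 and none was lower, while 3.17% of all 10562 genes tested were called higher and 3.46% lower. These were Ctsd and Ctsa, which encode an aspartic and a serine protease. In all, 5 members had an unadjusted p under 0.05, Cst3 being the one with a negative difference, and DESeq2 called 3 (Ctsa, Ctsb and Ctsd). Because only 4 libraries entered, with 1 residual degree of freedom beyond what is borrowed from other genes, p-values measure only the spread between these libraries. The fits rescale the library totals by TMM factors, and the CPM do not. A fitted difference can therefore depart from the CPM printed beside it, in size and in sign.

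In cluster 10, Ctsd, an aspartic endopeptidase with a broad part in lysosomal protein turnover, stood at 1784, 1535, 4823 and 6940 CPM. Both day 10 libraries were above both day 6 libraries, and the fitted difference was 1.96 ± 0.40 on the log2 scale (SE, n = 4, edgeR adjusted p = 0.0112). Ctsa, a carboxypeptidase that also shields β-galactosidase and neuraminidase in the lysosome, stood at 230, 256, 433 and 465 CPM. Its days did not overlap either, with a log2 difference of 1.04 ± 0.24 (SE, n = 4, edgeR adjusted p = 0.0204).

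None of the 6 cysteine protease genes of the list that could be tested in cluster 10 passed. Ctsb, an endo- and exopeptidase, stood at 1513, 1685, 3156 and 3644 CPM, with a log2 difference of 1.24 (edgeR adjusted p = 0.0501). Ctsh, an aminopeptidase, stood at 508, 697, 1100 and 1022 CPM, with a difference of 0.98 (edgeR adjusted p = 0.0645). For both, the days did not overlap. Ctss, which trims the class II invariant chain and keeps its activity at neutral pH, stood at 5926, 6171, 9325 and 8170 CPM, and Ctsz, a carboxypeptidase, at 1700, 2048, 2455 and 2589 CPM. Their days did not overlap, with log2 differences of 0.68 and 0.58 that did not pass. Ctsl, an endopeptidase, stood at 1357, 1143, 1419 and 1596 CPM, a difference of 0.42. Ctsc, which activates serine proteases of immune granules, was at 1953, 2341, 1863 and 1468 CPM, the opposite direction, with a difference of -0.22, and neither gene had overlapping days. Ctsk, known mainly as the collagen-degrading protease of osteoclasts, had 0, 1, 18 and 7 UMIs in the cluster and was too low for the test; its 0 allows up to 0.873 CPM, the level that 3 counts would give.

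Cst3 stood apart from the proteases in cluster 10, at 17700, 8632, 4839 and 5679 CPM. The young day 6 library was the highest, and both day 6 libraries were above both day 10 libraries. The fitted log2 difference of -1.09 ± 0.49 (SE, n = 4) did not pass (edgeR adjusted p = 0.225). The neutrophil markers of the cluster summed to 4555, 1341, 6035 and 3751 CPM, with the lowest value in the middle-aged day 6 library, and the microglial markers to 6223, 3493, 3316 and 3370 CPM, with the highest value in the young day 6 library. None of the 9 microglial markers was at 0 in the cluster; 1 of the 9, Fcrls, was called lower on day 10 (log2 difference -3.82), and their median difference was -0.28. Of the 11 neutrophil markers 5 were called higher on day 10 (median difference 1.29), and of the 10 monocyte/macrophage markers 5 were called higher and 4 lower. The part of these other changes in the result was not tested. Of the members, 4 (Ctsa, Ctsb, Ctsd and Ctsh) were called without the cells that held markers of another lineage. None was called when either day 10 library was left out of a single-term fit and 7 when either day 6 library was, Cst3 (lower) among them in both.

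**Figure D2:**
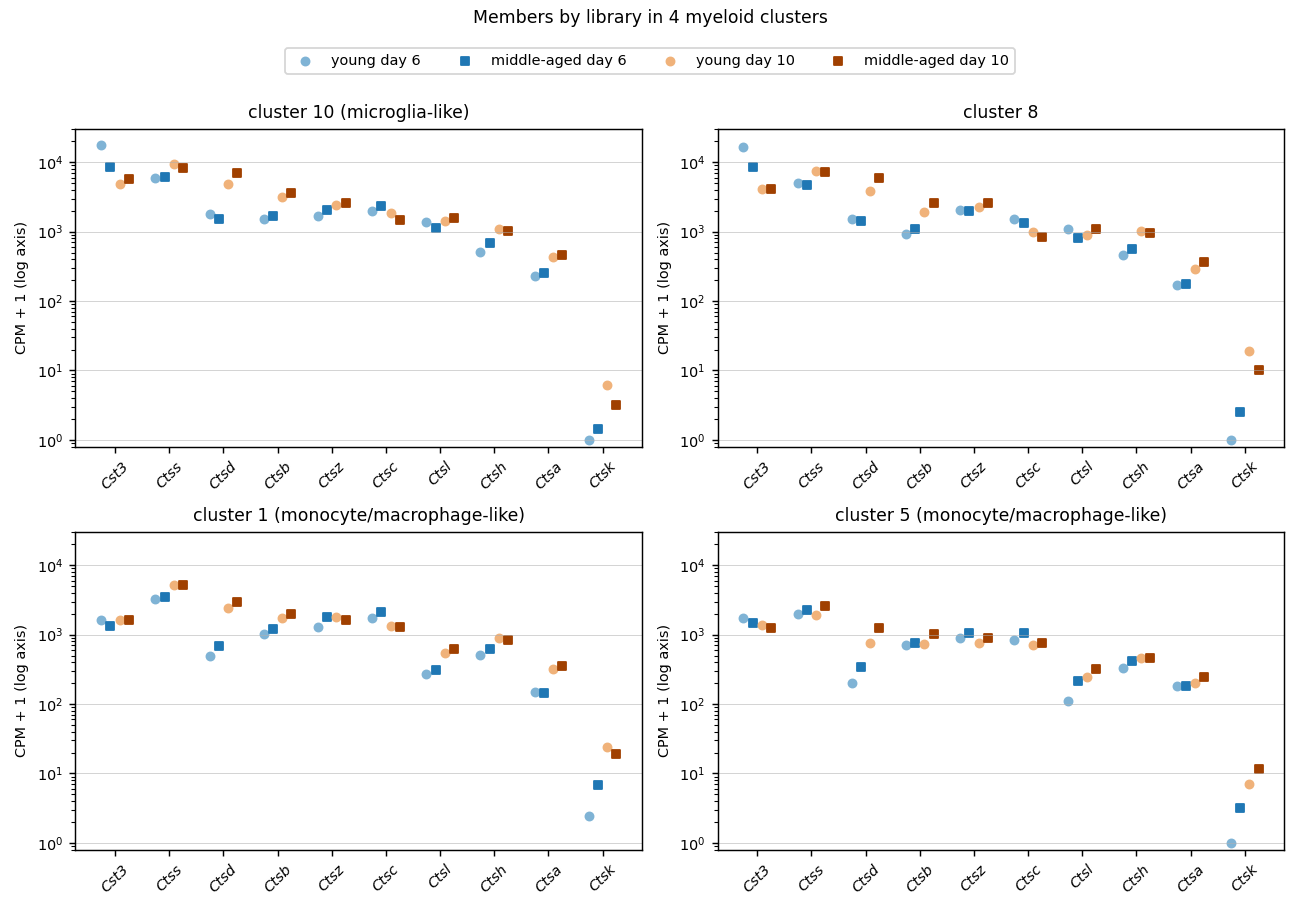
Level of each gene (CPM, log scale) in the 4 single-cell libraries, for clusters 10, 8, 1 and 5, with 1 point per library and no error bars because there is 1 library per age and day. Ctsd lies higher in both day 10 libraries than in both day 6 libraries of all 4 clusters, and Cst3 lies lower in clusters 10, 8 and 5.

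In cluster 8, 7 of the 10 members were higher on day 10, against 6.5% of the 8371 genes tested, and 1 was lower, against 6.9%. Cst3 was the one that fell. It stood at 16424, 8660, 4051 and 4136 CPM, so that both day 6 libraries were above both day 10 libraries, with a log2 difference of -1.26 ± 0.15 (SE, n = 4, edgeR adjusted p = 4.14e-06).

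Ctsd had the largest difference in cluster 8 among the members other than Ctsk, from 1538 and 1431 CPM on day 6 to 3863 and 6015 CPM on day 10, or 1.98 ± 0.15 on the log2 scale (SE, n = 4, edgeR adjusted p = 1.18e-08). Ctsb stood at 922, 1089, 1890 and 2591 CPM and rose by 1.42 (edgeR adjusted p = 5.90e-07). Ctsh stood at 458, 555, 1015 and 949 CPM and rose by 1.24 (edgeR adjusted p = 2.95e-05). In all 3 genes the days did not overlap. Ctsa stood at 169, 174, 287 and 364 CPM and rose by 1.20 (edgeR adjusted p = 1.48e-04). Ctss, at 5015, 4756, 7374 and 7323 CPM, rose by 0.87 (edgeR adjusted p = 7.53e-06), and Ctsz, at 2044, 2006, 2295 and 2574 CPM, by 0.54 (edgeR adjusted p = 0.00732). The days of these 3 did not overlap either, but those of Ctsz were close. Ctsk had 0, 2, 46 and 23 UMIs and was called higher (edgeR adjusted p = 0.00122); its 0 on day 6 allows up to 4.61 CPM, and the size of its fitted difference depends on the prior count and is not given. Ctsc, at 1525, 1348, 991 and 827 CPM, and Ctsl, at 1091, 811, 889 and 1097 CPM, did not pass, with log2 differences of -0.38 and 0.35, and the days of Ctsl overlapped. In cluster 8 the TMM factors shifted the fitted differences upward, so rises are larger and falls smaller than in the CPM. With RLE size factors in place of TMM factors, the same members were called.

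Other markers moved with day in cluster 8. The microglial markers summed to 2820, 1777, 858 and 1169 CPM, and 6 of 9 were called lower on day 10. The monocyte/macrophage markers summed to 760, 1616, 7835 and 6296 CPM, with 7 of 9 tested called higher, and 6 of 8 T cell markers were also called higher. The fit that follows left out cells by markers of T, B and NK cells and neutrophils only. It left out none by monocyte/macrophage markers, so the part of such transcripts in the result was not tested. Without the cells that held markers of T, B or NK cells or neutrophils, the same 8 members were called, and with any 1 library left out 7 to 9 were.

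In cluster 1, 5 of 10 members were higher on day 10 and 1 was lower, against 14.7% and 15.2% of the 12222 genes tested. Ctsd stood at 491, 682, 2460 and 2988 CPM, and rose by 2.06 ± 0.21 on the log2 scale (SE, n = 4, edgeR adjusted p = 1.29e-05). Ctsk, detected with 32, 154, 516 and 438 UMIs, stood at 1.44, 5.87, 22.8 and 17.9 CPM and rose by 2.45 ± 0.40 (SE, n = 4, edgeR adjusted p = 5.79e-04). For both, the days did not overlap.

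Smaller differences in cluster 1 were called for 4 other members. Ctsa, at 149, 142, 319 and 348 CPM, rose by 1.03 on the log2 scale (edgeR adjusted p = 0.00176). Ctsl, at 269, 312, 537 and 618 CPM, rose by 0.83 (edgeR adjusted p = 0.00783). Ctsb, at 1010, 1212, 1723 and 1980 CPM, rose by 0.57 (edgeR adjusted p = 0.0473), a call that held in 2 of 10 settings and not with RLE size factors, DESeq2, no filter or without cells of other lineages. Ctsc was the member that fell, from 1735 and 2096 CPM to 1319 and 1267 CPM, or by 0.73 (edgeR adjusted p = 0.0193). The days did not overlap for these 4 members. Cst3, at 1621, 1323, 1650 and 1613 CPM, had a log2 difference of -0.01 that did not pass, and its 4 values lay below every value of clusters 10 and 8. Ctss, at 3293, 3471, 5232 and 5196 CPM, Ctsh, at 511, 630, 901 and 833 CPM, and Ctsz, at 1305, 1824, 1779 and 1640 CPM, did not pass, and the days of Ctsz overlapped. Other markers moved with day in this cluster too: by edgeR, 3 of 9 microglial markers were called higher, 4 of 10 monocyte/macrophage markers higher and 5 lower, 3 of 11 neutrophil markers higher and 2 lower, and 3 of 3 endothelial markers lower. Their part in the result was not tested. Leaving out the middle-aged day 10 library left 1 member called (Ctsd) and leaving out the young day 10 library left 2 (Ctsa and Ctsd), in fits with day as the single term.

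In cluster 5, 3 of 10 members were higher on day 10 and 3 were lower, against 10.3% and 15.4% of the 10379 genes tested. Ctsd rose, from 202 and 339 CPM to 760 and 1260 CPM, or by 1.61 ± 0.15 on the log2 scale (SE, n = 4, edgeR adjusted p = 1.66e-06). Ctsl, at 110, 216, 242 and 315 CPM, rose by 0.54 (edgeR adjusted p = 0.0383), and Ctsk was called higher (edgeR adjusted p = 0.00221) with 0, 15, 26 and 44 UMIs, where the 0 allows up to 0.384 CPM. The 3 that fell were Cst3, at 1713, 1448, 1362 and 1236 CPM (log2 difference -0.57, edgeR adjusted p = 0.00455), Ctsc, at 834, 1061, 706 and 757 CPM (-0.66, edgeR adjusted p = 0.00377), and Ctsz, at 894, 1039, 745 and 899 CPM (-0.53, edgeR adjusted p = 0.0113). The days did not overlap for these members except Ctsz, whose levels overlapped in CPM. Ctss, at 1969, 2240, 1950 and 2564 CPM, Ctsb, at 716, 746, 727 and 1008 CPM, Ctsh, at 327, 417, 458 and 466 CPM, and Ctsa, at 181, 181, 199 and 242 CPM, did not pass, with log2 differences of -0.20, -0.06, 0.03 and -0.01. The TMM factors shifted the fitted differences downward in this cluster. Ctsh and Ctsa were thus higher in CPM in both day 10 libraries, with fitted differences of only 0.03 and -0.01. With RLE size factors the same members were called, and calls without any such scaling were not tested.

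T cell markers in cluster 5 summed to 367, 499, 1133 and 1598 CPM, and all 8 were called higher on day 10. Neutrophil markers summed to 7187, 5724, 16421 and 6572 CPM, highest in the young day 10 library, with 2 of 11 called higher and 2 lower. The monocyte/macrophage markers summed to 12539, 18275, 19776 and 13246 CPM. Without the cells that held markers of another lineage, 1 member was called by day, Ctsc (lower), and 310 of all genes were called in place of 2662. No member was called without the middle-aged day 10 library, in a fit with day as the single term.

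**Figure D3:**
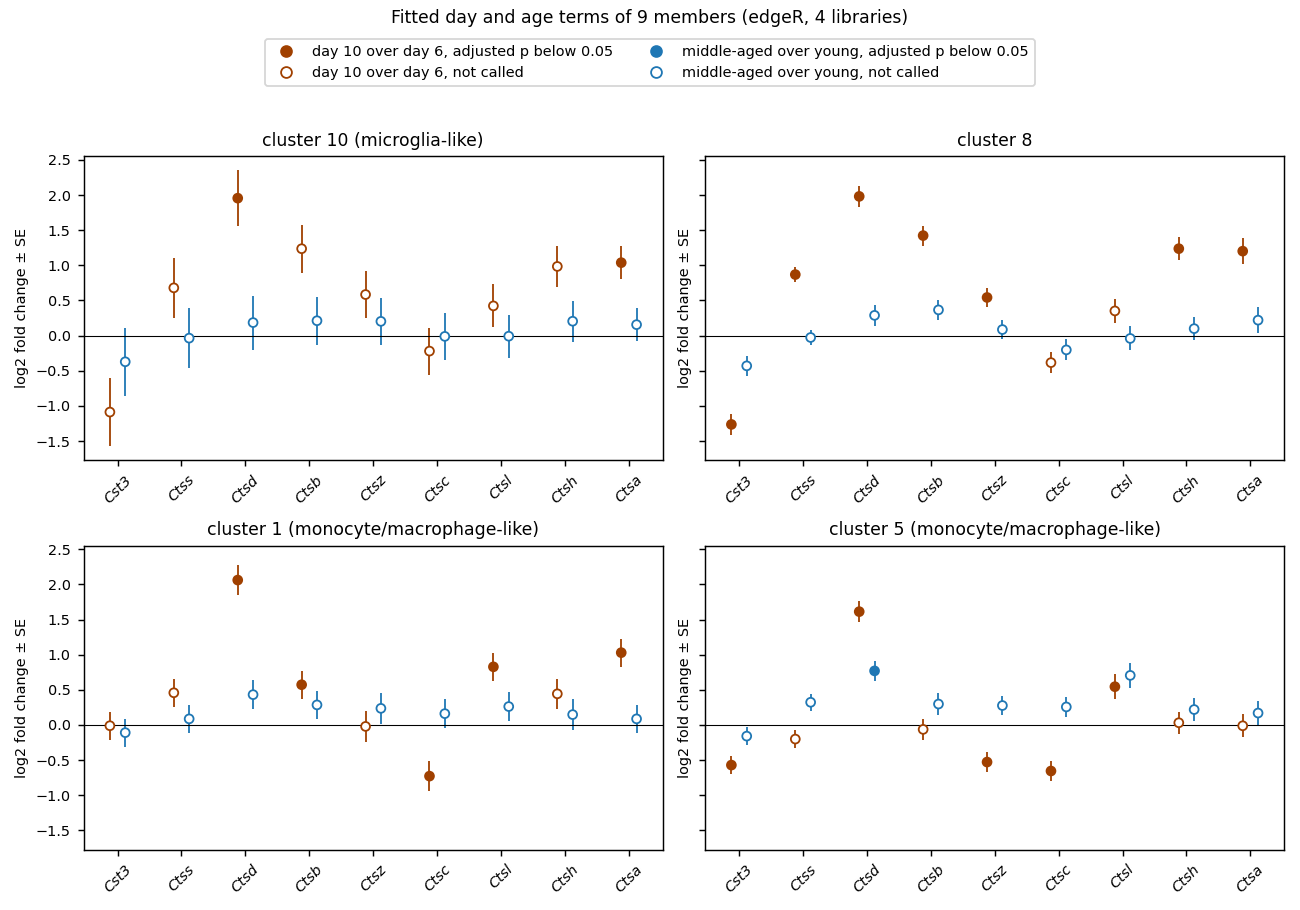
Fitted difference (log2) of day 10 over day 6 and of middle-aged over young for 9 of the genes in clusters 10, 8, 1 and 5, from edgeR fits to the 4 libraries. Bars are standard errors and Ctsk is not drawn; Ctsd lies between 1.61 and 2.06 by day in all 4 clusters.

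Cells as well as sums showed the opposite course of Cst3 and Ctsd. After thinning each cell of cluster 10 to 2000 UMIs, which left 411, 214, 351 and 330 cells, the median cell held 34, 16, 9 and 12 UMIs of Cst3, with quartiles of 21 to 52 in the young day 6 library and 6 to 13 in the young day 10 library. The median cell held 3, 2, 9 and 13 UMIs of Ctsd. In cluster 8, where only 132 of 249, 234 of 364, 490 of 668 and 473 of 776 cells were deep enough, the medians were 23, 14.5, 6 and 6 for Cst3 and 2, 2, 6 and 10 for Ctsd. These are descriptions of cells within single libraries, with no test.

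The ratio of the inhibitor to the proteases was taken within a library, as Cst3 UMIs per 100 UMIs of the 9 cathepsins together. In cluster 10 it was 118, 54.4, 19.7 and 21.9, and in cluster 8 it was 129, 71.1, 21.8 and 19.0. In cluster 1 it was 18.5, 12.7, 11.5 and 10.8, all below every value of cluster 10. The dendritic cell-like cluster 7, with 349, 399, 383 and 337, lay above all of these. The cathepsins of cluster 10 together made up 14970, 15875, 24579 and 25896 CPM, and Ctsd alone went from 11.9% and 9.7% of the cathepsin UMIs on day 6 to 19.6% and 26.8% on day 10. These UMIs count transcripts and not active protease or secreted inhibitor, and fewer transcripts per cell and a different mix of cells cannot be told apart in sums.

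**Figure D4:**
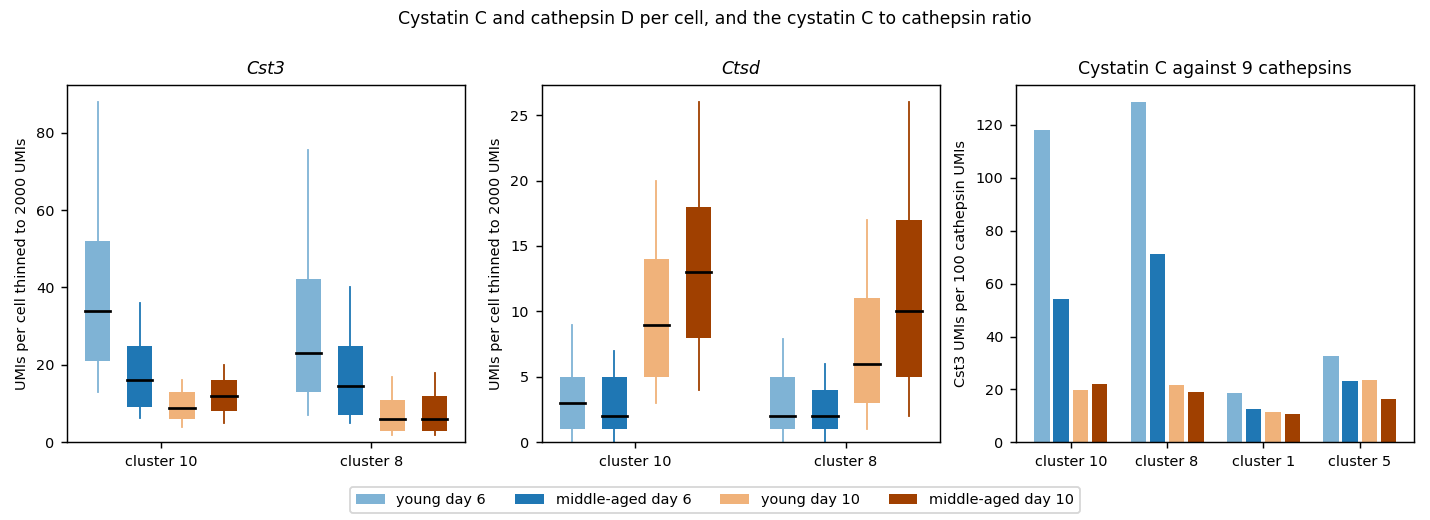
UMIs of Cst3 and Ctsd per cell thinned to 2000 UMIs (boxes from the 25th to the 75th percentile, lines from the 10th to the 90th, black marks at the median), and Cst3 UMIs per 100 cathepsin UMIs, by library. In cluster 10 the median of Cst3 goes from 34 and 16 on day 6 to 9 and 12 on day 10, and that of Ctsd from 3 and 2 to 9 and 13.

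Most cells of cluster 10 held the abundant members. After thinning to 2000 UMIs, Ctsd was found in 87.8%, 87.9%, 98.6% and 99.7% of cells, and Ctsa in 37.7%, 40.7%, 58.4% and 56.7%; without thinning Ctsa was found in 76.6%, 85.2%, 92.3% and 95.5%. In the T cell-like cluster, where RNA released from other cells is a possible source, the thinned shares for Ctsd ran from 24.6% to 44.7%. They were also higher in both day 10 libraries, where the cluster stood at 375 and 355 CPM of Ctsd, against 197 and 169 CPM on day 6. The part of released RNA in the microglial values was not tested. In the thinned cells, 8 members were found in more than 50% of the cells of cluster 10 in every library.

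The comparison of middle-aged with young mice across both days asks whether recipient age went with different cathepsin levels. In cluster 10, no member was called by age, against 0.142% of all genes in either direction, and none had an unadjusted p under 0.05 in edgeR's quasi-likelihood test. No member was called in cluster 8 (0.0956% of all genes; 2 members with an unadjusted p under 0.05) or cluster 1 (0.0982% of all genes; none). In cluster 5, 1 of 10 members was called, against 0.674% of all genes, and 4 members had an unadjusted p under 0.05. This was Ctsd, higher in middle-aged mice by 0.77 ± 0.15 on the log2 scale (SE, n = 4, edgeR adjusted p = 0.0296). Of the markers of other cells in cluster 5, 4 of 11 neutrophil markers and 1 of 4 dendritic cell markers were called lower in middle-aged mice and 1 of 2 perivascular macrophage markers higher. With age as the single term or without cells of other lineages, no member was called by age in cluster 5. Fits with a library left out had age as the single term and 1 library of 1 age. Without the middle-aged day 10 library, the log2 difference of Ctsd was -0.25. There the middle-aged day 6 library stood against young libraries of both days, so age cannot be told apart from day. DESeq2 also called no member by age in clusters 10, 8 and 1, and called Ctsd in cluster 5.

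Within a day there was 1 library per age, so the age ratios have no test. Their 95% intervals, from the exact conditional binomial distribution, cover counting error only and are narrow for genes with many UMIs. On day 6 in cluster 10, Cst3 was lower in the middle-aged library, with a log2 ratio of -1.04 (-1.06 to -1.01), and on day 10 it was higher, with 0.23 (0.20 to 0.26). Ctsd had log2 ratios of -0.22 on day 6 and 0.53 on day 10. Ctsb, at 0.16 and 0.21, and Ctsz, at 0.27 and 0.08, were higher in the middle-aged library on both days. Of the 9 members with 100 or more UMIs, 5 had an interval above 0 on day 6, against 18% of all genes, and 3 below, against 19%. On day 10 these were 5, against 7.6%, and 3, against 9.83%.

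In cluster 8, Cst3 was again lower in the middle-aged library on day 6, at -0.92 (-0.96 to -0.89) on the log2 scale, and close to equal on day 10, at 0.03. Ctsd, at -0.10 and 0.64, and Ctsl, at -0.43 and 0.30, changed sign between the days, and Ctsb was higher on both, at 0.24 and 0.45. Of 9 members, 2 lay above 0 on day 6, against 15.5% of all genes, and 4 below, against 14.1%. On day 10, 5 lay above, against 8.17%, and 2 below, against 13%.

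In cluster 1, all genes together had a median log2 ratio of -0.13 on day 6, and the members are read against that. Above 0 lay 8 of 10 members, against 16% of all genes, and 1 below, against 40.3%. Ctsd, at 0.48, and Ctsz, also at 0.48, were among those above 0, and Ctsk, with 32 and 154 UMIs, was at 2.03. On day 10, 4 of 10 members lay above 0, against 17.9%, and 5 below, against 17.8%, with Ctsd at 0.28, Ctsz at -0.12 and Ctsk at -0.35. In cluster 5, 7 of 9 members lay above 0 on day 6, against 16.2% of all genes, and 1 below, against 24.9%. On day 10 the numbers were also 7 and 1, against 13.8% and 13.6%. Ctsd, at 0.75 and 0.73, and Ctsl, at 0.97 and 0.38, were higher in the middle-aged library on both days there, and Cst3 lower, at -0.24 and -0.14. In the dendritic cell-like cluster 7, Cst3 was higher in the middle-aged library on day 6, at 0.65, and lower on day 10, at -0.16.

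Other genes of the lysosome were read for comparison. The list most like the members, other cathepsins and lysosomal peptidases, had 4 of 9 tested called higher on day 10 in cluster 10 and none lower, with a median log2 difference of 0.68, where 3.17% of all genes were called higher. They were Ctsf and Ctsw, both cysteine cathepsins, at 0.99 and 1.65, Tpp1, a tripeptidyl peptidase, at 0.97, and Cpq, a carboxypeptidase, at 1.31. Ctsw was low, at 4.36, 2.52, 13.4 and 6.18 CPM. The 1 NK cell marker tested and 1 of 8 T cell markers were also called higher on day 10 in cluster 10. In cluster 8, 5 of 9 were called higher and none lower, against 6.5% and 6.9% of all genes, led by Napsa, an aspartic protease, at 2.34, Tpp1, at 1.22, and Ctsw, at 1.76. Ctsw stood there at 6.14, 5.38, 13.6 and 17.6 CPM, and 6 of 8 T cell markers were called higher. The part of lymphocyte transcripts in the values of Ctsw was not tested. In cluster 1, 4 of 10 were called higher, against 14.7% of all genes, and in cluster 5, 1 of 9 was called higher and 2 lower, against 10.3% and 15.4%.

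Of 25 glycosidases, lipid enzymes and lysosomal membrane proteins, 10 were called higher on day 10 in cluster 10 and none lower, with a median log2 difference of 0.70, against a median near 0 over all genes. The 3 with the lowest p were Glb1 (β-galactosidase), at 1.22, Lipa (lysosomal acid lipase), at 1.03, and Naglu, a glycosidase of heparan sulfate, at 1.02. In cluster 8, 15 of 25 were called higher and none lower, with a median of 0.80, led by Psap (prosaposin), at 1.62, Lamp1, at 1.41, and Gm2a, at 1.53. In cluster 1, 15 were called higher, led by Cd63, at 1.78, and Lipa, at 1.55, and 2 were called lower, Npc2 and Lamp2. Of all genes, 3.17% were called higher and 3.46% lower in cluster 10, and 6.5% and 6.9% in cluster 8. For cluster 1 these shares were 14.7% and 15.2%. In cluster 5, 5 of 25 were called higher and 3 lower, with a median of 0.06, where 10.3% and 15.4% of all genes were called, and these counts share the dependence of that cluster on cells of other lineages given above.

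Of the proton pump subunits, which acidify the lysosome, none of 15 was called in cluster 10 by edgeR (median 0.40, 4 with an unadjusted p under 0.05). In cluster 8, 3 of 16 were called higher (median 0.38). In cluster 5, 5 of 16 were called lower and 1 higher (median -0.28), led by Atp6v0a1, at -1.28. For all lists of this paragraph, the shares of all genes called higher and lower by day were 3.17% and 3.46% in cluster 10 and 6.5% and 6.9% in cluster 8. They were 14.7% and 15.2% in cluster 1 and 10.3% and 15.4% in cluster 5. The counts of cluster 5 share its dependence on cells of other lineages given above. Genes of MHC class II and its loading, the compartment in which Ctss acts, had 5 of 9 called higher and none lower in cluster 10 (median 2.22) and in cluster 8 (median 1.82), and 4 of 9 called higher and none lower in clusters 1 and 5 (medians 0.40 and 0.24). Among other inhibitors, 3 of 6 tested were called higher in cluster 10. They were Cst7 (cystatin F, an inhibitor within cells), at 1.85, Stfa2l1, at 1.13, and Serpinb1a, at 2.70 but with at most 8.54 CPM. In cluster 8, 3 of 6 were called higher, Cstb (stefin B), at 1.32, Cst7, at 0.89, and Stfa2, which had 0 CPM in both day 6 libraries. In cluster 5, 5 of 8 were called higher, with Cst7 at 1.76, and 1 lower, Serpina3g, at -1.60. Those higher included Stfa1, at 0.256, 3.25, 49.3 and 3.57 CPM, and Stfa2, at 0.513, 2.36, 18.0 and 1.43 CPM. Both were highest in the young day 10 library, and Stfa2 was lower in the middle-aged day 10 than in the middle-aged day 6 library. Stfa2l1, also among them, stood at 14.7, 19.9, 43.3 and 26.7 CPM. In cluster 1, 1 of 8 was called higher and 1 lower. The higher one was Stfa2, at 0.0449, 0.343, 7.46 and 0.449 CPM, again highest in the young day 10 library. Stfa1, Stfa2 and Stfa2l1 were among the 10 leading genes of the neutrophil-like cluster 3, and the part of neutrophil transcripts in these counts was not tested. So Cst7 rose in cluster 10 while Cst3 had the opposite sign. Of 10 sorting receptors and MiT/TFE factors, 2 were called higher in cluster 10. Igf2r, a mannose 6-phosphate receptor that carries precursors to the lysosome, was at 1.83, with 2.91, 12.6, 17.6 and 27.2 CPM. Mitf was at 0.99, with 18.6, 19.7, 23.3 and 50.1 CPM, highest in the middle-aged day 10 library. None was called in cluster 8. In cluster 1, 2 were called higher (Sort1 and Igf2r), and in cluster 5, 2 higher (Igf2r and Tfeb) and 1 lower (Tfec). By age, none of these lists had a called gene in clusters 10, 8 and 1. Cd63 was called higher in cluster 5 (0.87), where 0.674% of all genes, or 70, were called in either direction. With age as the single term no gene was called by age in cluster 5, and without cells of other lineages 26 were. Among the genes named by age in cluster 10, with the same sign on both days, were Cst7, at log2 ratios of 1.33 and 0.30, and Cstb, at 1.07 and 0.16. Others were Gla, at 1.04 and 0.26, Cd63, at 0.85 and 0.11, and Lgmn (legumain, the asparaginyl endopeptidase), at -0.43 and -0.20. The counting interval of Gla on day 10 included 0 (-0.051 to 0.58). Of the proton pump, Atp6v1d was at 0.54 and 0.05, Atp6v1c1 at 0.50 and 0.15, and Atp6v1a at 0.46 and 0.30.

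In microglia of naive mice, Cst3 was the member with the highest count, with 905226 reads in the young and 874782 in the middle-aged library, and its CPM ranked 3 among all genes in the young library. Ctss followed with 382051 and 387881 reads, Ctsd with 336635 and 353222, and Ctsb with 200778 and 205459. Per kilobase of exon the levels were 9008 and 9057 CPM per kilobase for Cst3, 3544 and 3744 for Ctss, and 1804 and 1969 for Ctsd. On this scale Ctsz, at 727 and 805, stood above Ctsb, at 418 and 445, and above Ctsa, at 216 and 215. Ctsh, Ctsl and Ctsc lay between 92.7 and 114 CPM per kilobase, and Ctsk, with 14 and 19 reads, at 0.117 and 0.165. The members together took up 2.67% and 2.78% of the counts. Per kilobase, Cst3 stood at 128 and 121 per 100 of the summed cathepsins.

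The ages differed little in these naive microglia. Of the 9 members with 100 or more reads, 8 had an interval above 0, against 27.4% of all genes, and none had one below 0, against 31%, but the largest log2 ratios of middle-aged over young were 0.15 for Ctsz and 0.13 for Ctsd, and Cst3 was at 0.01. Ctsa, at -0.01, had an interval that included 0. With 1 library per age no test was possible. The libraries were counted without strand, so reads of Ctsa cannot be told apart from those of Neurl2 and Pltp where the genes overlap, nor those of Ctsb from Fdft1 or of Ctsz from Nelfcd, and Ctsd overlaps Gm49369. Markers of endothelial cells summed to 340 CPM in the young and 110 CPM in the middle-aged library and those of perivascular macrophages to 219 and 103 CPM, beside 26375 and 24853 CPM for microglial markers; their part in the ratios was not tested. All 5 perivascular macrophage markers had an interval below 0.

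**Figure D5:**
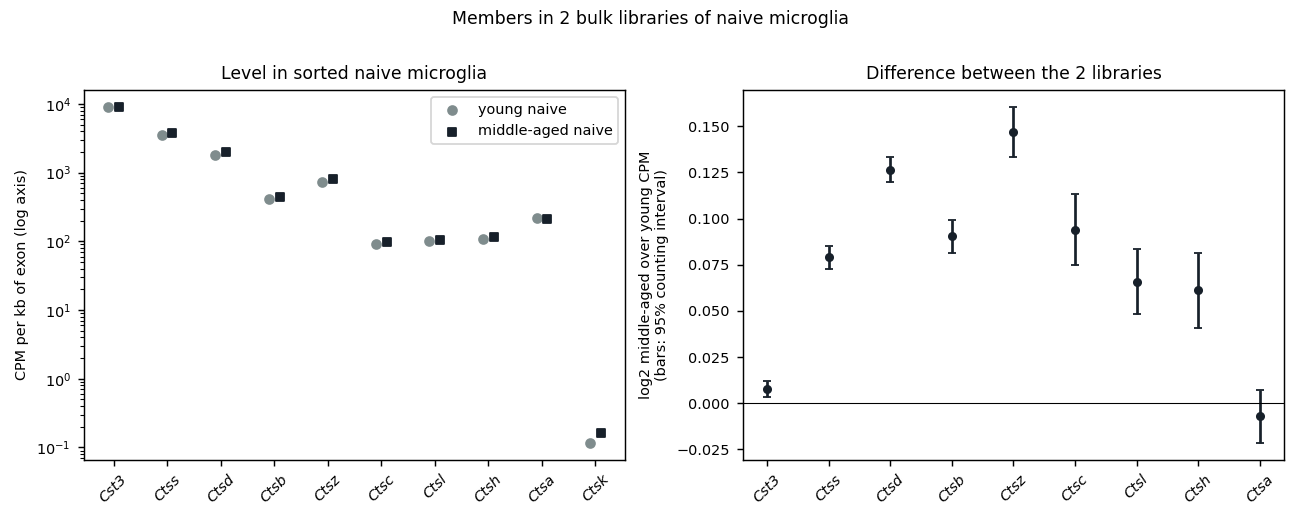
Level of each gene in the 2 bulk libraries of naive microglia (CPM per kilobase of exon, log scale), and log2 ratio of middle-aged over young with 95% counting intervals. There is 1 library per age; Cst3 is highest in both, at 9008 and 9057, Ctsz and Ctsd have the largest ratios, at 0.15 and 0.13, and Ctsk is left out of the ratios.

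Genes whose levels ran most like those of a member were listed by Pearson's r of log2(CPM + 1) over the 57 sums of a cluster and a library with 20 or more cells, as a description, since the sums share libraries. Among 5991 genes, Ctss was most like Lgmn (r = 0.947), Ctsl most like Csf1r (0.961) and Ctsb most like Cd68 (0.913). Ctsc was most like Aif1 (0.930), Ctsh most like Unc93b1 (0.916), Ctsz most like Psap (0.904) and Cst3 most like Tspan33 (0.906). The lowest of these were for Ctsa with Clta (0.871), Ctsk with Ms4a7 (0.869) and Ctsd with Timp2 (0.856). Between members, Ctss and Ctsz were most alike (0.954) and Ctsd and Ctsh least (0.317). These 2 genes parted between clusters: in cluster 0, with Il1f9, Chil1 and Il23a among its leading genes, Ctsd stood at 1173 to 1864 CPM and Ctsh at 89.1 to 131 CPM, whereas in the B cell-like cluster 4 Ctsd stood at 34.7 to 89.1 CPM and Ctsh at 205 to 267 CPM.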

How the data were processed

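Single-cell libraries (10x Genomics) were counted by the authors with Cell Ranger 3.1.0 on mm10 with GENCODE M23. The authors filtered cells by genes, depth, mitochondrial and ribosomal share in Seurat 4.0.4, aligned the libraries and clustered the cells. The authors deposited unnormalized counts of UMIs for each cell, beside its cluster number. Bulk reads were trimmed with fastp 0.20.0, aligned with HISAT2 2.1.0 and counted by the authors without strand in Subread 1.5.0-p2 on Ensembl 99. The deposited bulk values are raw read counts, and their columns were tied to age through the deposited sample table.

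UMIs were summed by cluster and library. Genes with 10 or more counts in 2 libraries were tested with edgeR 4.0.16 (TMM factors, quasi-likelihood, terms for day and age) in R 4.3.3, with calls at an adjusted p below 0.05, and again with DESeq2 1.42.0. The fit was tested on simulated data. Nothing in the labels ties libraries to separate cultures or animals beyond the pools, so p-values measure only the spread between these libraries, which may be technical. Within a day, and in bulk, ratios of CPM were given with 95% counting intervals for genes whose counts in the pair of libraries added up to at least 100. Doublets were not called; an alternative left out cells holding at least 2 UMIs of T, B or NK markers or at least 5 UMIs of neutrophil genes. Shares of cells were taken after thinning each cell to 2000 UMIs, leaving out shallower cells.

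The members and all lists of genes were chosen with earlier results of these data known. All members are named. From each other list up to 3 called genes were named by p, and up to 3 by the size of the age ratio in cluster 10 where both days had the same sign. Genes most like a member had 50 CPM or more in 1 or more sums. Promoter windows were taken from RefSeq; Ctsb and Ctsh were not in that table. Python 3.11.15 was used with pandas 2.3.3, scipy 1.17.1 and numpy 2.4.6, and figures were drawn with matplotlib 3.10.9.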

Additional observations from a re-analysis of the deposited data

Results flagged for a closer look

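The age ratio (log2 of middle-aged over young) had counting intervals on opposite sides of 0 on the 2 days for several members. Each day has 1 library per age, so the difference between the days was not tested. In cluster 10, the ratios on day 6 and day 10 were -1.04 and 0.23 for Cst3, -0.22 and 0.53 for Ctsd, and -0.25 and 0.17 for Ctsl, lower and then higher in the middle-aged library. Ctsc, at 0.26 and -0.34, Ctsh, at 0.46 and -0.11, and Ctss, at 0.059 and -0.19, went the other way.

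In cluster 8, Ctsl was at -0.43 and 0.30, as in cluster 10, and Ctsh at 0.28 and -0.10. In the monocyte/macrophage-like cluster 1, Ctsc was at 0.27 and -0.058, Ctsh at 0.30 and -0.11, Ctsk at 2.03 and -0.35, and Ctsz at 0.48 and -0.12. Ctsh thus had a positive ratio on day 6 and a negative one on day 10 in all 3 clusters, which share their 4 libraries.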

How the results depend on the processing

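No paired analysis was possible because the labels give no replicate numbers and each age and day had 1 library. Of the main counts, 123 comparisons with an alternative kept their direction and side of the threshold, 20 became weaker and 7 stronger; of the values of single members, 937 kept both, 51 became weaker, 24 stronger, 84 moved by more than their interval and 6 reversed. Fits with a library left out had a single term, since 3 libraries leave no residual degrees of freedom with both. The cause of the changes below was not tested.

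Members called by day in cluster 10 numbered 2, 5 without a filter on low counts, 4 without cells of other lineages and 0 to 7 with a library left out, with 0 without either day 10 library. In cluster 1 they numbered 6, and 1 to 8 with a library left out. In cluster 5 they numbered 6, 3 with day as the single term, 1 without cells of other lineages, and 0 to 4 with a library left out. Members called by age in cluster 5 numbered 1, 2 with RLE size factors, 3 without a filter, 0 with age as the single term and 0 without cells of other lineages. With a library left out, the log2 difference of Ctsd there ran from -0.25 without the middle-aged day 10 library to 1.80 without the young day 10 library. Both fits had age as the single term and unlike days in the 2 ages, so age cannot be told apart from day in them.

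Of the members with an age ratio off 0, those lower on day 6 in cluster 8 numbered 4, and 2 both without cells of other lineages and with TMM factors; Ctss turned to 0.0088 and 0.0031 in these. In cluster 1, those lower numbered 1 on day 6, 2 with mitochondrial and ribosomal genes left out of the total, and 5 on day 10, 3 without cells of other lineages, where Ctsk turned to 0.12. In cluster 5 without such cells, those on day 10 went from 7 to 4 higher and from 1 to 0 lower, Ctsb turned to -0.013 on day 6 and Ctsz to -0.21 on day 10.

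Over all genes, those called by day numbered 700 in cluster 10, 1122 in cluster 8, 3654 in cluster 1 and 2662 in cluster 5, against 138, 248, 1923 and 1159 in DESeq2. Without a filter cluster 10 had 1201, and without cells of other lineages cluster 8 had 703 and cluster 5 had 310. With a library left out they ran from 194 to 1944, 699 to 1438, 565 to 4910 and 764 to 1775. By age, 15, 8, 12 and 70 genes were called, 5, 2, 12 and 21 in DESeq2, 53, 41, 3 and 303 without a filter, 6, 0, 14 and 26 without cells of other lineages, 16, 12, 4 and 159 with RLE size factors, none with age as the single term, and 0 or 1 with a library left out. The share of members found in over 50% of cluster 10 cells in every library was 8 of 10 at 2000 UMIs, 7 at 1000 and 9 without thinning, an alternative added after seeing the data. Depth limits Ctsk most, with at most 46 UMIs per library in clusters 10, 8 and 5.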
